A study of Mus musculus with 4 samples.

Results

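The genes described here are 10 cytokine and receptor genes of the interleukin-1 (IL-1) family and of the colony-stimulating factors, measured in EO771 cells, a mouse mammary carcinoma line. The ligand genes are Il1a, Il1b, Il18 and Il33, with the antagonist gene Il1rn, the receptor gene Il1r1, the colony-stimulating factor genes Csf1, Csf2 and Csf3, and the related epithelial cytokine gene Tslp. They were chosen by name, and for each gene the probe set that the platform annotation assigns to it alone was used, or the one with the highest mean over the 4 arrays where there were several. This found 10 of 10 genes among 22180 named genes, on 11 of 41345 probe sets, since Csf2 has a second one. The A-FABP group (2 arrays) was given recombinant mouse A-FABP, the adipose fatty acid binding protein, a lipid chaperone that also circulates, at 100 ng/ml, and the PBS control group (2 arrays) received the vehicle. Both groups were EO771 cells grown in RPMI 1640 for 24 hours before treatment, and the sources used here give no treatment time. The control arrays carry a description that also names A-FABP, and their group was taken from their titles.

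IL-1 alpha and IL-1 beta bind the receptor encoded by Il1r1, which recruits an accessory chain and signals through MYD88 and IRAK kinases to NF-kB, and the antagonist encoded by Il1rn occupies the same receptor without signalling. IL-18 and IL-33 use related receptors of their own. IL-1 beta and IL-18 are made as precursors that inflammasome caspases cleave. CSF1, CSF2 and CSF3 drive the growth and survival of macrophages, of granulocytes and macrophages, and of neutrophils, and tumour cells are a known source of them.

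Of the 10 genes, Il18 was the one with the largest positive difference, 1.39-fold higher with A-FABP, and Csf1 and Csf2 were 1.21-fold and 1.24-fold lower. Il1a, Il1b, Il1rn and Csf3 also lay lower with A-FABP, with 95% confidence intervals that included 0, and Il33, Il1r1 and Tslp lay within 0.13 of 0 on the log2 scale. No difference passed the test: 0 of 10 genes had an adjusted p under 0.05 in limma, as did 0% of all 41345 probe sets, and the adjusted p of the 10 ran from 0.302 to 0.862. At an unadjusted p under 0.05 there were 3 of the 10, 1 higher (4.81% of all named genes were) and 2 lower (8.24% of all were), together against 13% of all named genes. With PBS control replicate 1 or replicate 2 left out, 0 of the 10 had an unadjusted p under 0.05 in limma. Over all probe sets 15.1%, or 6258, had an unadjusted p under 0.05. The values below are therefore descriptions of 4 arrays and not calls. The 10 differences had a median of -0.18, with 6 below 0 and 4 above, where all named genes had a median of -0.01 and 52.4% lay below 0.

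**Figure D1:**
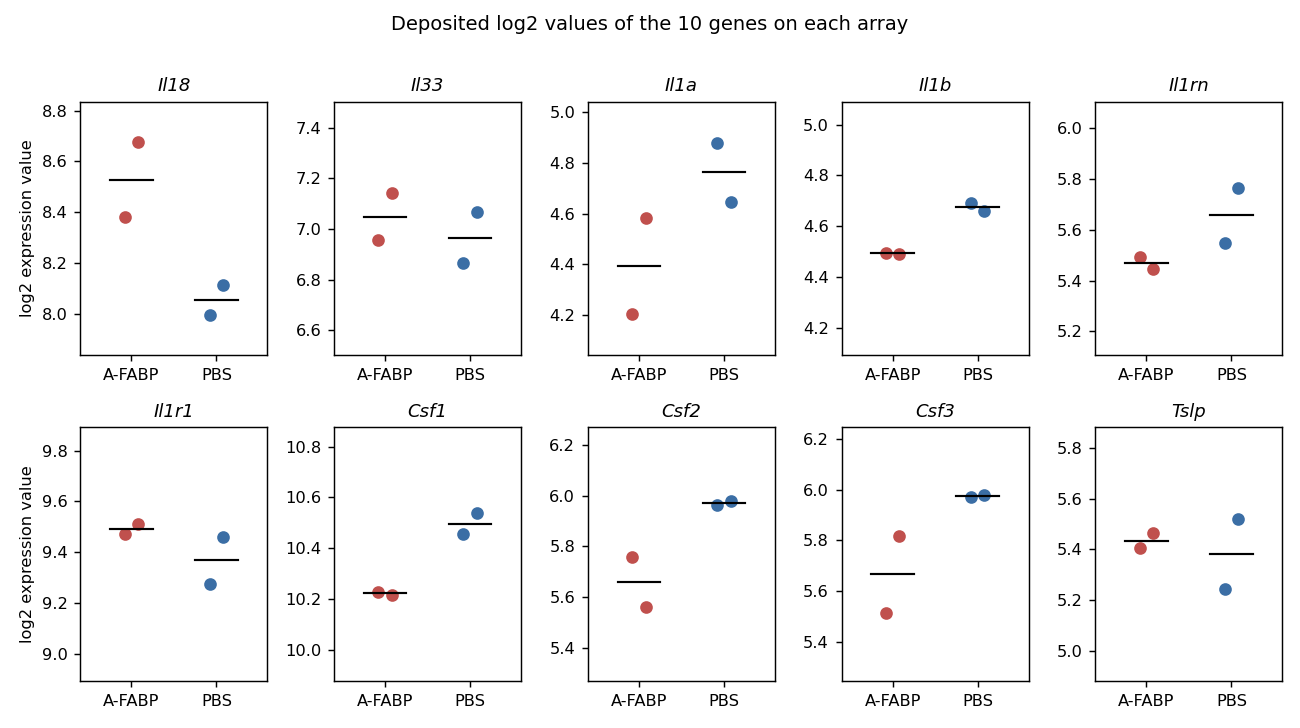
Deposited log2 expression value (vertical axis, each panel spanning 1 log2 unit) of the 10 genes on the 2 A-FABP arrays (red) and the 2 PBS arrays (blue), with bars at the group means. The groups stand apart in 8 panels, with A-FABP lower in 6 and higher in 2 (Il18 and Il1r1), and overlap for Il33 and Tslp.

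Values are log2 expression values, and a difference is the mean of the A-FABP arrays minus the mean of the PBS arrays. In 2 of the 10 genes both A-FABP arrays lay above both PBS arrays, as in 26% of all named genes, and in 6 both lay below, as in 27.5% of all. These shares followed the brightness of a gene. Among genes with a mean level of 5 to 6, 44.6% had both A-FABP arrays below and their median difference was -0.15, and among genes at 8 to 9, 53.2% had both above and their median was 0.09. The array medians were 5.98 and 5.95 with A-FABP, against 6.03 and 6.03 with PBS. Of the 10 genes, 6 had a mean level below the median of all probe sets (Il1a, Il1b, Il1rn, Csf2, Csf3 and Tslp) and 4 above it (Il18, Il33, Il1r1 and Csf1). Levels of different probe sets are not set against each other as amounts of RNA, and whether a dim gene was expressed was not called. In RNA from a whole culture, fewer cells making a transcript and less of it per cell cannot be told apart.

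Among the ligands, Il18 encodes a cytokine that induces interferon gamma in lymphocytes and is stored as a precursor in many epithelial cells. It had values of 8.38 and 8.68 on the A-FABP arrays, against 7.995 and 8.11 on the PBS arrays. Both A-FABP arrays were higher, 0.27 separating the groups, although the 2 A-FABP arrays differed from each other by 0.30 and the 2 controls by 0.12. Il18 averaged 8.53 ± 0.21 with A-FABP and 8.05 ± 0.08 with PBS (SD, n = 2 each), a log2 difference of 0.47 ± 0.14 (SE), and the 95% confidence interval was 0.09 to 0.86, or 1.06-fold to 1.81-fold. The limma adjusted p was 0.302 and the unadjusted p 0.0270. The 2447 named genes within 0.5 of its mean level had a median difference of 0.09. With 1 array left out the Il18 difference ran from 0.33, without A-FABP replicate 2, to 0.62, without A-FABP replicate 1.

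Promoter windows are shown for the genes with an unadjusted p under 0.05 in limma (Il18, Csf1 and Csf2). This choice went by p and not by size, since Il1a lay at -0.37 and Csf3 at -0.31. Each runs from 250 bases before to 50 bases after the start site in RefSeq (GRCm38.p6), 5′ to 3′ on the gene's strand, in lower case. Capitals mark matches on either strand to GGAAANNCC, an NF-kB type motif, to TGACTCA, an AP-1 type motif, or to TATAAA, the core promoter box that binds TBP. Of 32851 promoter windows of 300 bases, 5.82% hold the first, 5.20% the second and 13.6% the third. The Il18 window lies at chr9:50554450-50554749 (+), the Csf1 window at chr3:107760420-107760719 (-) and the Csf2 window at chr11:54249850-54250149 (-).
Il18: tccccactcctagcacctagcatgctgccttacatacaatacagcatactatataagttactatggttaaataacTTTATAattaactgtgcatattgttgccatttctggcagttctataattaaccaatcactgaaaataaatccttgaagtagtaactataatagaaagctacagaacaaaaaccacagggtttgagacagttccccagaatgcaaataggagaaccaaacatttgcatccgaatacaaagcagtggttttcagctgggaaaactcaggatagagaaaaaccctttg
Csf1: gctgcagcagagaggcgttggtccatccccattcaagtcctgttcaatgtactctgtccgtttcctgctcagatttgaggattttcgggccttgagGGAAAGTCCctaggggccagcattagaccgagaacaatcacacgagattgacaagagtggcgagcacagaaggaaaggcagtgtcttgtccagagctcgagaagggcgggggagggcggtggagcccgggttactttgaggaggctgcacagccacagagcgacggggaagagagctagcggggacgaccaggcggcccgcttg
Csf2: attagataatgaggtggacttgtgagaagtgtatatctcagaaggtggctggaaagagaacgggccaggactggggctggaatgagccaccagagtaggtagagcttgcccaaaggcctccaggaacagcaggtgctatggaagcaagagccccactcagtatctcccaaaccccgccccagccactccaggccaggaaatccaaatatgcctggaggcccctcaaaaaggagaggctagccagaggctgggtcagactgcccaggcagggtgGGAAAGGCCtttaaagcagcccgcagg
The Csf1 match to the NF-kB type motif is GGAAAGTCC, starting at position -154 relative to the start site, and the Csf2 match is GGAAAGGCC, which begins at position 24. The Il18 window holds the TATA letters on the opposite strand, at position -175. Of the 8 genes of the 10 with a window that could be read here, 3 hold the NF-kB type motif (Csf1, Csf2 and Il1rn), 2 the AP-1 type motif (Il1a and Il1rn) and 5 the TATA letters. These genes have 12 windows, since Il1rn has 3 and Il1r1 and Il33 have 2 each. The motifs stand in 4, 2 and 6 of the 12, where the shares over all promoters count single windows. In Il1rn, 2 windows overlap and hold the same GGTTTTTCC, so the 4 count this NF-kB type site in both. The motifs were chosen after these windows and the differences had been seen, and the letters of the NF-kB and AP-1 type motifs were altered once after a first search, which brought Il1rn into the first count. A match is a run of letters and not a shown binding site.

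Il33 encodes a nuclear cytokine released by damaged barrier cells. Its values were 6.96 and 7.14 with A-FABP, against 6.86 and 7.07 with PBS. The groups overlapped, and the difference of 0.08 (95% confidence interval -0.26 to 0.43, adjusted p = 0.772 in limma) was smaller than the gap between the 2 arrays of either group. It turned to -0.01 without A-FABP replicate 2 and to -0.02 without PBS control replicate 1.

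Il1a and Il1b, neighbours on chromosome 2, encode the founding IL-1 agonists, IL-1 alpha as a cell-associated alarmin and IL-1 beta as a secreted cytokine. Both were dim. Il1a had 4.20 and 4.58 with A-FABP, against 4.88 and 4.65 with PBS. The highest A-FABP array lay 0.06 below the lowest PBS array, so the groups only just stood apart. Its difference of -0.37 ± 0.18 (SE) had a 95% confidence interval of -0.86 to 0.12 and was -0.18 without A-FABP replicate 1 and -0.56 without A-FABP replicate 2. Il1b had 4.49 and 4.49 with A-FABP, against 4.69 and 4.66 with PBS. Here the arrays of each group lay close together, and the difference was -0.18 ± 0.08 (SE; 95% confidence interval -0.40 to 0.03). Named genes within 0.5 of their mean levels had a median difference of -0.12 in both cases.

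Il1rn encodes the secreted antagonist of the IL-1 receptor. Its values were 5.49 and 5.45 with A-FABP, against 5.55 and 5.77 with PBS, with both A-FABP arrays lower. The difference was -0.19 ± 0.11 (SE; 95% confidence interval -0.50 to 0.12), beside a median of -0.15 for genes of like level. Without PBS control replicate 2 it was -0.08, and without PBS control replicate 1 it was -0.30.

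Il1r1 encodes the signalling receptor for both IL-1 agonists and was well above the array medians. It had 9.47 and 9.51 with A-FABP, against 9.27 and 9.46 with PBS. The lower A-FABP array lay 0.01 above the higher PBS array, and the 2 controls differed more from each other than the groups did. The difference was 0.12 ± 0.10 (SE; 95% confidence interval -0.16 to 0.41), beside 0.06 for genes of like level, and it ran from 0.03 to 0.22 with a PBS control array left out (replicate 1 and replicate 2).

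**Figure D2:**
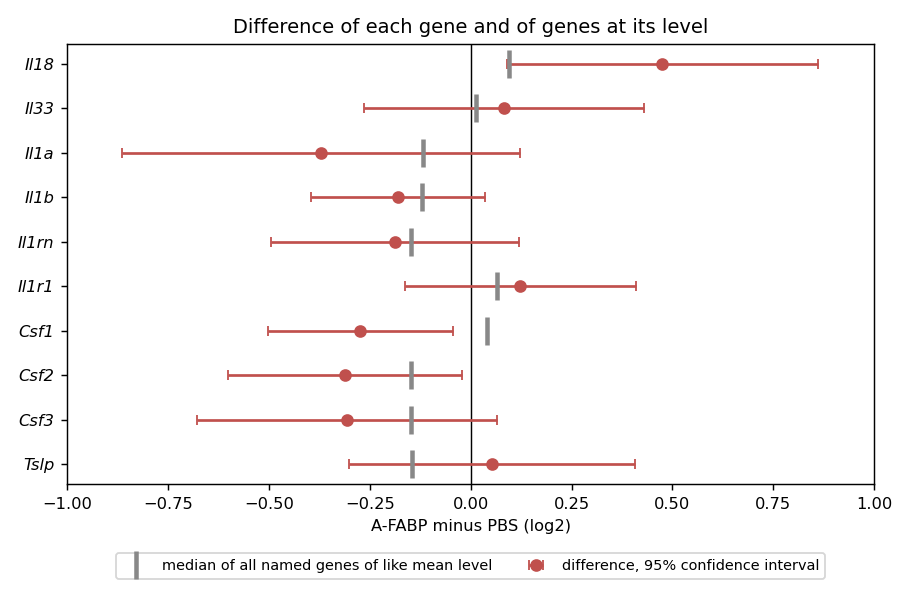
Difference of A-FABP minus PBS on the log2 scale (horizontal axis) for each of the 10 genes, as points with 95% confidence intervals from limma, with grey bars at the median difference of all named genes within 0.5 of the gene's mean level. The Csf1 interval (-0.50 to -0.04) lies below its grey bar at 0.04, and in the other 9 genes the grey bar falls inside the interval.

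Among the colony-stimulating factors, Csf1 encodes the main growth factor of macrophages and was bright, above 93.5% of all probe sets on the mean level. Its values were 10.23 and 10.21 with A-FABP, against 10.45 and 10.54 with PBS. Both A-FABP arrays were lower, and the arrays of each group lay within 0.083 of each other. Csf1 averaged 10.22 ± 0.01 with A-FABP and 10.50 ± 0.06 with PBS (SD, n = 2 each). The difference was -0.27 ± 0.08 (SE; 95% confidence interval -0.50 to -0.04), with a limma adjusted p of 0.304 and an unadjusted p of 0.0296. Genes of like level had a median of 0.04, and 16.0% of genes at levels of 10 to 11 had both A-FABP arrays on the lower side. With the trend of the difference on the mean level removed, the Csf1 difference was -0.31, and with each array centred on its median it was -0.21.

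Csf2 encodes GM-CSF, a growth factor of granulocytes and macrophages that lymphocytes and epithelial cells can secrete. Its brighter probe set had 5.76 and 5.56 with A-FABP, against 5.96 and 5.98 with PBS. The A-FABP arrays were lower than each control, and the controls were 0.016 apart. The difference was -0.31 ± 0.10 (SE; 95% confidence interval -0.60 to -0.02; limma adjusted p = 0.318, unadjusted p = 0.0409), beside a median of -0.15 for genes of like level. The other Csf2 probe set had 5.40 and 5.23 with A-FABP, against 5.40 and 5.44 with PBS. There the groups overlapped and the difference was -0.10 (95% confidence interval -0.37 to 0.17), so the probe sets of Csf2 gave different sizes in 1 direction. With the trend on the mean level removed, the Csf2 difference was -0.19.

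Csf3 encodes G-CSF, the growth factor of neutrophils. Its values were 5.51 and 5.82 with A-FABP, against 5.97 and 5.98 with PBS. The A-FABP arrays were both lower but 0.30 apart from each other, as far as the groups were. The difference was -0.31 ± 0.13 (SE; 95% confidence interval -0.68 to 0.06; limma adjusted p = 0.374), -0.16 without A-FABP replicate 1 and -0.46 without A-FABP replicate 2. Genes of like level had a median of -0.15.

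Tslp encodes thymic stromal lymphopoietin, an epithelial cytokine that acts on dendritic cells. Its values were 5.40 and 5.46 with A-FABP, against 5.24 and 5.52 with PBS. Both A-FABP arrays fell between the 2 controls, and the difference was 0.05 (95% confidence interval -0.30 to 0.41; limma adjusted p = 0.862). It was -0.08 without PBS control replicate 1 and 0.17 with the trend on the mean level removed. Genes of like level had a median of -0.15.

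**Figure D3:**
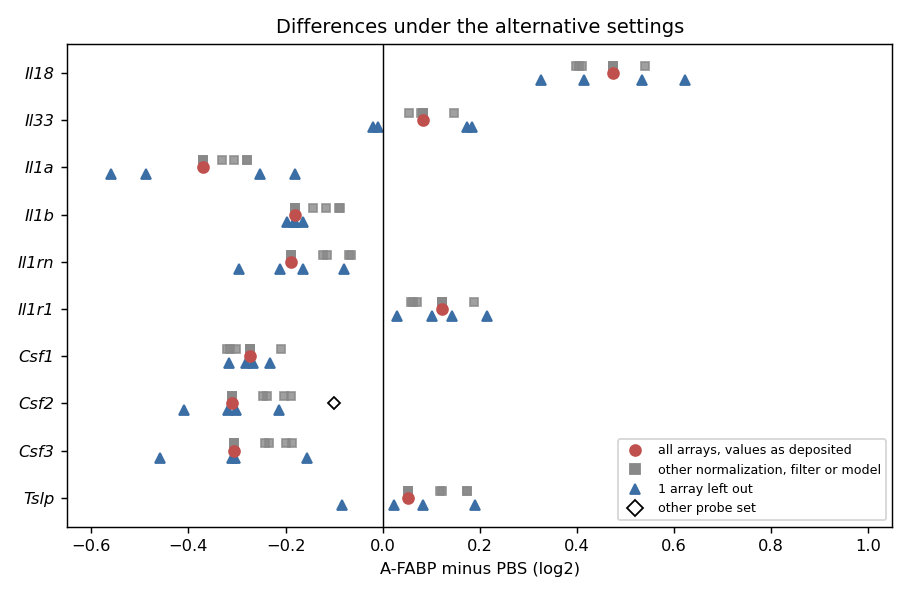
Difference of A-FABP minus PBS on the log2 scale (horizontal axis) of each of the 10 genes with all arrays as deposited (red circles), under another normalization, filter or model (grey squares), with 1 array left out (blue triangles), and at the other Csf2 probe set (open diamond). Il18 stayed between 0.33 and 0.62 and Csf1 between -0.32 and -0.21, while Il33 and Tslp had values on both sides of 0.

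The other ligands and receptors of the IL-1 family had differences in both directions, with 7 of 12 measured members above 0, a median of 0.05 and 0 past the adjusted threshold. At an unadjusted p under 0.05 there were 2 higher (4.81% of all named genes were) and 2 lower (8.24% were). Il1f10, which encodes the IL-38 cytokine, had 6.28 and 6.08 with A-FABP, against 6.79 and 6.69 with PBS, a difference of -0.56 ± 0.11 (SE). Il1f8, the gene of IL-36 beta, lay at -0.40, and Il1f9, the gene of IL-36 gamma, at 0.23. Il18rap, the accessory chain of the IL-18 receptor, had 9.26 and 9.34 with A-FABP, against 9.06 and 9.07 with PBS. Both A-FABP arrays of Il18rap were higher, by 0.23 ± 0.08 (SE), beside a median of 0.07 for genes of its level. Named for their roles and outside the rule of lowest p, the ligand-binding chain gene Il18r1 lay at 0.18, the IL-18 decoy gene Il18bp at 0.02 and the shared IL-1 accessory chain gene Il1rap at 0.08. Leaving out 1 array lowered the number of genes at an unadjusted p under 0.05, and without PBS control replicate 2 the median was -0.06.

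Differences of the signalling genes downstream of the IL-1 receptor ran from -0.20 (Irak2) to 0.15 (Map3k7). In 4 members both A-FABP arrays lay above both PBS arrays, beside 26% of all named genes. In 3 both lay below, beside 27.5% of all. Of 13 measured members 7 lay above 0 and 6 below, with a median of 0.02, and 0 had an adjusted or an unadjusted p under 0.05 in limma, where 13% of all named genes had the latter. The kinase gene Irak1 lay at -0.17 (95% confidence interval -0.40 to 0.07) and its relative Irak2 at -0.20 (-0.55 to 0.16). Map3k7, which encodes the kinase TAK1, lay at 0.15 (-0.08 to 0.39), and the adaptor gene Myd88 at 0.14 (-0.11 to 0.38). The sign of the median depended on the scaling: it was -0.03 after cyclic loess, -0.04 after repeated quantile normalization and -0.04 with the trend on the mean level removed.

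Among inflammasome and cytokine processing genes, members differed in opposite directions. Casp1, which encodes the caspase that cleaves the IL-1 beta and IL-18 precursors, had 10.89 and 10.93 with A-FABP, against 10.60 and 10.52 with PBS. Both A-FABP arrays of Casp1 were higher, by 0.35 ± 0.08 (SE), or 1.27-fold. Its relative Casp4, a sensor of intracellular lipopolysaccharide, had 10.96 and 10.96 with A-FABP, against 10.67 and 10.64 with PBS, a difference of 0.30 ± 0.08 (SE). Pycard, which encodes the adaptor ASC that links sensors to caspase-1, had 6.51 and 6.49 with A-FABP, against 7.02 and 7.03 with PBS. It was 1.44-fold lower, at -0.52 ± 0.08 (SE), and both A-FABP arrays lay well below both controls. Mefv, the gene of the sensor pyrin, was dim and lay at -0.40. Of 15 measured members 8 lay above 0 and 7 below, the median was 0.05, and 0 passed the adjusted threshold (adjusted p = 0.296 for Pycard, Casp1 and Casp4 in limma). At an unadjusted p under 0.05 there were 2 higher and 3 lower, beside 4.81% and 8.24% of all named genes, and 1 to 3 in all with an array left out. The median was -0.03 without A-FABP replicate 1.

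The receptors and relatives of CSF1, CSF2, CSF3 and TSLP lay lower in most cases, and 6 of them had a mean level below the median of all probe sets. Of the 13 that were measured, 9 had a difference below 0 and 4 above, and the median was -0.13, where all named genes had -0.01 and genes at levels of 5 to 7 had -0.15 (5 to 6) and -0.10 (6 to 7). The G-CSF receptor gene Csf3r had 5.95 and 6.02 with A-FABP, against 6.28 and 6.41 with PBS. Csf2rb, the signalling chain shared by the GM-CSF, IL-3 and IL-5 receptors, had 6.18 and 6.03 with A-FABP, against 6.42 and 6.51 with PBS. Both A-FABP arrays were lower in each of these genes, by 0.36 ± 0.09 and 0.36 ± 0.10 (SE) on the log2 scale. Il5ra lay at -0.34 and Csf2rb2, a second beta chain of mice, at -0.42. These beta chain genes are close copies, and signal shared between their probes was not tested. These 4 had an unadjusted p under 0.05, as did 8.24% of all named genes on the lower side. In this list 0 of 13 passed the adjusted threshold in limma, and leaving out 1 array lowered the number at an unadjusted p under 0.05. Named for their roles, the CSF1 receptor gene Csf1r lay at 0.16 (95% confidence interval -0.09 to 0.40) and Il34, the other ligand of that receptor, at 0.03 (-0.28 to 0.34).

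**Figure D4:**
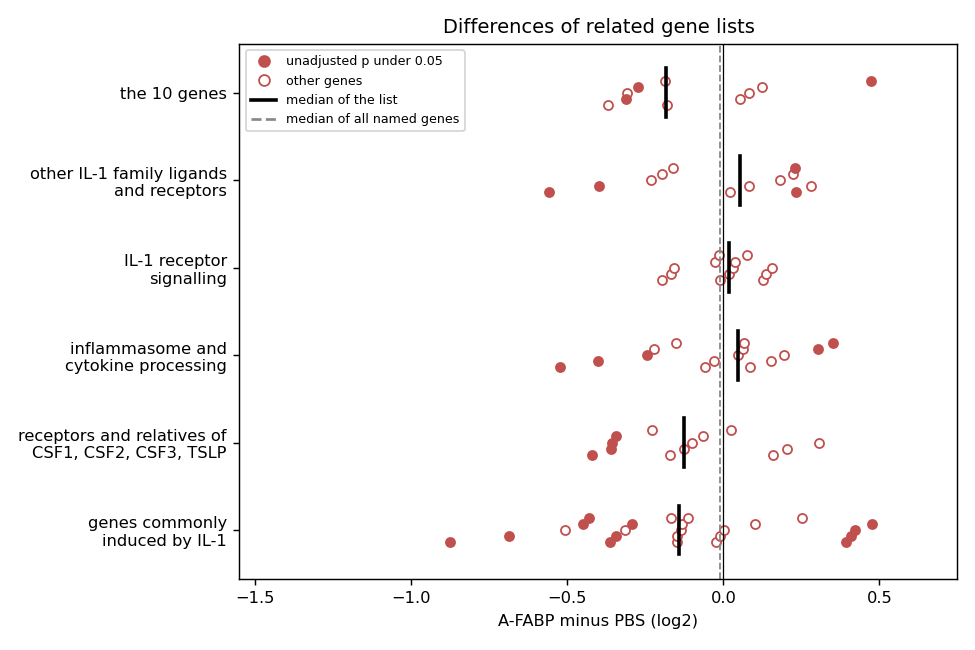
Difference of A-FABP minus PBS on the log2 scale (horizontal axis) of every measured gene of the 10 and of 5 related lists, one circle per gene, filled at an unadjusted p under 0.05, with a black bar at the list's median and a dashed line at the median of all named genes (-0.01). The lists run from a median of -0.18 for the 10 genes to 0.05, and each holds genes on both sides of 0.

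Genes commonly induced by IL-1 in other cells were mostly lower with A-FABP, with exceptions. Of 24 measured members 17 lay below 0 and 7 above, the median was -0.14, and 0 passed the adjusted threshold in limma. At an unadjusted p under 0.05 there were 7 lower and 4 higher, 11 in all, beside 8.24% lower, 4.81% higher and 13% in all of the named genes. With an array left out there were 3 to 7 in all, the lowest without PBS control replicate 2. In 17 members the A-FABP arrays were lower than each control, beside 27.5% of all named genes. In 6 they were higher than each control, beside 26% of all. The shares of all named genes are not matched for the levels of this list. The NF-kB inhibitor genes Nfkbia and Tnfaip3 lay lowest by p, at -0.69 ± 0.11 and -0.88 ± 0.16 (SE). Ccl2, which encodes a monocyte chemoattractant, had 10.38 and 10.28 with A-FABP, against 10.71 and 10.81 with PBS. Both A-FABP arrays of Ccl2 were lower, by 0.43 ± 0.09 (SE) on the log2 scale. Ptgs2, the gene of the prostaglandin synthase COX-2, went the other way, at 0.48 ± 0.09. This list was chosen with earlier results on some of these genes known, so its direction is no independent evidence.

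Markers of other cell types were examined because leukocytes, if present, would be a source of several of the 10 transcripts. Of 54 measured markers in 7 lists, 38 had a mean level below the median of all probe sets, and 7 were lower and 1 higher at an unadjusted p under 0.05, where 8.24% of all named genes were lower and 4.81% higher. The list medians ran from -0.27 (T and NK cells) to 0.01 (fibroblasts). Macrophage, dendritic cell and pan-leukocyte markers had 9 of 12 below 0 and a median of -0.18. Their median level was 5.74, and all named genes at levels of 5 to 6 had a median difference of -0.15. The summed log2 values of these markers were 74.7 and 74.5 with A-FABP, against 76.2 and 76.1 with PBS. The pan-leukocyte gene Ptprc, at 3.997 and 3.996 with A-FABP against 4.58 and 4.32 with PBS, was the dimmest of them. Cd68 was the brightest, at 12.70 and 12.80 with A-FABP, against 12.82 and 12.84 with PBS. The 3 of these markers above 0 were Cd14 at 0.28, Csf1r at 0.16 and Lyz2 at 0.04. No array value in the table is 0, so absence could not be read from it. The part of such cells in the differences of the dim cytokine genes was not tested. Epithelial markers, examined for the line's identity, had a median level of 6.15 over 10 genes, and 2 lay below the median of all probe sets. These levels do not settle the identity of the line. Krt8 was the brightest of the 10, at 8.76 and 8.85 with A-FABP, against 8.83 and 8.74 with PBS. Epcam was the dimmest, at 4.45 and 4.85 with A-FABP, against 4.79 and 5.05 with PBS. The 8 fibroblast markers had a median level of 6.18, with mean levels running from 4.58 (Lum) to 11.2 (Pdgfra), and 3 of them lay below the median of all probe sets.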

How the data were processed

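The data are 4 arrays, 2 with A-FABP and 2 with PBS, grouped by their titles. Each probe set has a deposited log2 value on every array, made by the authors, and the submitters' processing notes name RMA and Partek 6.6. No genome build is named in the sources used here. RMA compresses differences near the background. For arrays, their number limits the precision.

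Genes were named from the platform annotation, which gives 1 gene for 23521 probe sets, several for 1814 (left unnamed) and none listed for 16010. Differences come from limma 3.58.1 (lmFit, eBayes; R 4.3.3) on all 41345 probe sets together, with 2 residual and 1.91 prior degrees of freedom. The p-values are two-sided and Benjamini-Hochberg adjusted, and the threshold is 0.05. Known changes in simulated data were used to check the fit. With 2 arrays a group, the smallest two-sided p of an exact permutation test is 0.333. The titles call the arrays biological replicates, but nothing says that they were separate cultures. The p-values therefore rest on the spread between these samples, moderated by eBayes with the spread of all probe sets.

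The 10 genes and the related and marker lists were chosen with earlier results of these data known. From each related list the up to 4 genes with the lowest p were named, and others are said to be named for their role, or, among the markers, to show the lists' range. Il1f6, Il1f8 and Il1f9 stand for Il36a, Il36b and Il36g through RefSeq synonyms. Of the listed symbols, 9 matched no probe set that names 1 gene. Medians of lists are descriptions without a test. Alternatives covered normalization, a filter on dim probe sets, eBayes settings, a replicate block, 1 probe set per gene, other probe sets and each array left out. A trend of the difference on mean level (lowess, span 0.2) was removed as an alternative chosen after seeing the data.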

Additional observations from a re-analysis of the deposited data

How the results depend on the processing

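Under the alternatives run, 0 of the 10 genes and 0 probe sets passed the adjusted threshold (lowest adjusted p of any probe set 0.156, with trend and robust settings). Signs held in every alternative for 8 of the 10 genes. Il33 turned to -0.0090 without A-FABP replicate 2 and -0.019 without PBS control replicate 1 (highest 0.18), and Tslp to -0.085 without PBS control replicate 1 (highest 0.19), and the cause was not tested. Without 1 array, Il18 ran from 0.33 to 0.62, Csf1 from -0.32 to -0.23 and Csf2 from -0.41 to -0.21. With an array left out, the lone array of its group is taken to vary like the other group. The 3 genes at an unadjusted p under 0.05 became 1 after median centring and 1 with the replicate block, Il18 in both. With an array left out, the genes at that p changed and not only their number. Without A-FABP replicate 2 the largest differences below 0 were those of Il1a (-0.56) and Csf3 (-0.46). With 1 probe set per named gene, 4 genes had an unadjusted p under 0.05, Il1b among them (limma unadjusted p = 0.0469). The filter above the median level leaves 4 of the genes, so 1 of them lay below 0 rather than 6, and 6 to 8 did with an array left out.

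The replicate number as a block lowered the other IL-1 family count from 4 to 2 and gave no gene an adjusted p under 0.05. Deviations of the arrays numbered 1 correlated at -0.0089 across probe sets, so the numbers were not taken as pairs. Median centring moved the medians of IL-1 signalling to 0.083, inflammasome genes to 0.11, CSF receptors and relatives to -0.060 and IL-1 induced genes to -0.077, beside 0.055 for all named genes. Cyclic loess, repeated quantile normalization and removal of the trend gave -0.029, -0.036 and -0.038 for IL-1 signalling and -0.074, -0.098 and -0.061 for CSF receptors and relatives. The level filter gave a median of 0.15 and a count of 2 for the other IL-1 family genes, and a count of 2 for CSF receptors and relatives. That last count was also 2 with trend and robust settings and 2 with the trend removed, which left 3 inflammasome genes, and IL-1 signalling had 1 with trend and robust settings. With an array left out, medians ran from -0.057 to 0.12 (other IL-1 family), 0.0020 to 0.051 (IL-1 signalling), -0.034 to 0.090 (inflammasome), -0.15 to -0.11 (CSF receptors and relatives) and -0.19 to -0.097 (IL-1 induced). Counts at an unadjusted p under 0.05 then ran from 1 to 2, 0 to 0, 1 to 3, 1 to 2 and 3 to 7 in the same order. Signal over background was not given, so detection of the dim genes could not be judged.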
